A study of Mus musculus with 26 samples.

Results

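Hox genes encode homeodomain transcription factors (TFs) that give cells along the head-to-tail axis their positional identity. In mammals they lie in 4 clusters, Hoxa to Hoxd, and within a cluster the genes are ordered as they are used along the body, from paralog 1 at the anterior end to paralog 13 at the posterior end. Genes with the same number in different clusters are paralogs. In neural tissue a stretch of a cluster that is in use carries acetylated histones, and a stretch that is not is usually held by Polycomb proteins. H3K27Ac, acetylation of histone H3 at lysine 27, marks active promoters and enhancers and cannot sit on the same residue as the Polycomb mark H3K27me3, which the series did not map.

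The 38 Hox genes described here were taken by name from a list, out of 21829 protein-coding genes of GENCODE M21. Peaks were assigned to a cluster when their midpoint lay between its first and last listed gene or within 50 kb of either end. This gave 116 of 64227 ATAC peaks, 155 of 32655 H3K27Ac peaks, 22 of 13443 Runx3 peaks, 46 of 32822 Brn3a peaks and 18 of 16035 Isl1 peaks. On mm10, Hoxa covers chr6:52162417-52260880 (98.5 kb, minus strand, 10 genes), Hoxb chr11:96194316-96368256 (174 kb, 10 genes), Hoxc chr15:102921103-103036852 (116 kb, 9 genes) and Hoxd chr2:74668310-74765142 (96.8 kb, 9 genes).

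The cells were TrkC neurons, the proprioceptive lineage of the dorsal root ganglia (DRG), isolated at E11.5 from mice carrying BAC-E-GFP, a Runx3 transgene that drives GFP wherever its Runx3 enhancers act. The labels give no treatment and no groups other than the assays, so no conditions could be compared. Open chromatin was mapped by ATAC-seq in 3 samples, and CUT&RUN was run for H3K27Ac in 5, Runx3 in 8, Brn3a in 2 and Isl1 in 3, with normal rabbit serum (NRS) as control in 5. Each sample pooled the DRG, mainly cervical, of 10 to 20 embryos, and the methods state that some cells were sorted with magnetic beads from GFP-positive or WT mice. For each assay the files give 1 consensus list of intervals without signal, score or read count. The depth behind a peak is therefore unknown, no spread between samples could be measured, and every count below is a description of a list. A locus without a peak was not called in enough samples, which is not evidence that the mark was absent, and a mark present in part of the cells cannot be told apart from a weaker mark in all of them.

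Promoters of the sensory neuron markers were checked first. ATAC peaks were at 6 of 7 of them and H3K27Ac at 6 of 7, including Ntrk3, which encodes TrkC, and Runx3. Pou4f1, which encodes Brn3a, had ATAC but no H3K27Ac at its promoter. Pan-neuronal markers had both at 4 of 4. None of the 5 blood and endothelial markers had either. ATAC was found at 3 of 3 motor neuron markers, 4 of 5 mesenchyme and muscle markers and 2 of 4 glial and neural crest markers, and H3K27Ac at 1 of 4 glial and neural crest markers (Erbb3), 2 of 5 mesenchyme and muscle markers (Col1a1 and Pdgfra) and 1 of 3 motor neuron markers (Slc5a7). The part of such cells in the results on Hox genes was not tested.

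The clearest pattern in the clusters was an edge of H3K27Ac between paralogs 10 and 11. H3K27Ac overlapped the promoter (1 kb either side of any annotated TSS) of all 29 listed genes of paralogs 1 to 10, and of 0 of the 9 listed genes of paralogs 11 to 13. Over all protein-coding genes the share was 58.9%. The 9 unmarked genes were Hoxa11, Hoxa13, Hoxb13, Hoxc11, Hoxc12, Hoxc13, Hoxd11, Hoxd12 and Hoxd13, the most posterior listed genes of each cluster. The most posterior genes with the mark were Hoxa10, Hoxb9, Hoxc10 and Hoxd10, and Hoxb has no paralogs 10 to 12. Both counts stayed at 0 and 29 when the window was narrowed to 500 bp or cut to 100 bp downstream of the TSS. With the principal transcript alone 28 genes were marked, Hoxd4 being lost, and around the start codon 28, Hoxd3 being lost. Neighboring genes of a cluster share peaks and transcripts, so the genes are not independent counts.

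**Figure D1:**
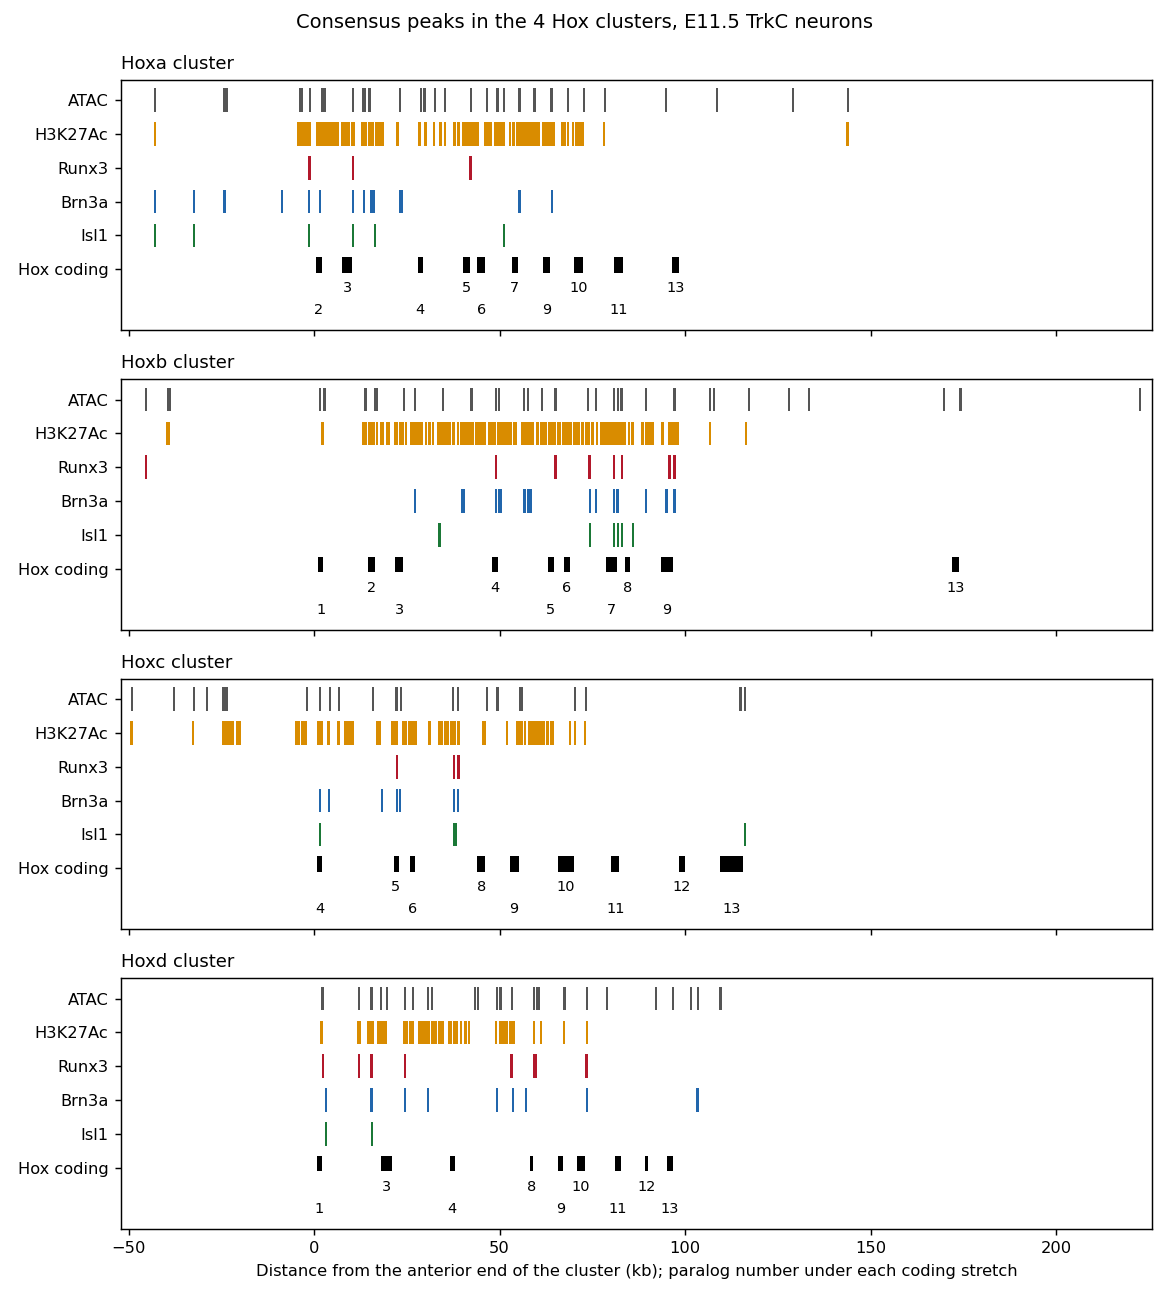
Consensus peaks of each assay (coloured blocks) along the 4 clusters, by distance in kb from the anterior end, with the coding stretch of each listed Hox gene in black and its paralog number beneath. Narrow blocks are drawn at a fixed minimum width. Within the clusters H3K27Ac stops before paralog 11 in Hoxa, Hoxc and Hoxd and after Hoxb9 in Hoxb. A lone H3K27Ac peak lies outside Hoxa, 144 kb from its anterior end, and ATAC peaks continue as far as paralog 13.

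The edge lay at a similar point in each cluster. In Hoxa the last H3K27Ac peak was 468 bp wide at chr6:52240323-52240790, at a distal TSS of Hoxa10, and the 20.1 kb beyond it to the end of the cluster held none. Outside the cluster, past Hoxa13, the window held 1 more H3K27Ac peak, 144 kb from the anterior end and with an ATAC peak at the same place. In Hoxc it was 371 bp wide at chr15:102963681-102964051, upstream of Hoxc10, with 42.6 kb free beyond. In Hoxd it was 574 bp wide at chr2:74691343-74691916 and ended 8 bp upstream of the TSS of Hoxd10, with 23.0 kb free beyond. In Hoxb the last peak, 717 bp wide at chr11:96251480-96252196, was at the 5' end of the long noncoding RNA Gm53 between Hoxb9 and Hoxb13, with 57.2 kb free beyond. The nearest H3K27Ac peak was 5020 bp from the TSS of Hoxa11, 9254 bp from Hoxc11 and 9020 bp from Hoxd11. Up to these edges H3K27Ac peaks covered 58.2% of Hoxa, 58.4% of Hoxb, 40.1% of Hoxc and 36.2% of Hoxd.

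ATAC peaks followed the edge only in part. They were at the promoters of 30 of 38 Hox genes (78.9%), beside 64.8% of all protein-coding genes, and 27 of 38 had ATAC and H3K27Ac together, beside 57.5%. By paralog number, 27 of 29 genes of paralogs 1 to 10 and 3 of 9 of paralogs 11 to 13 had an ATAC peak. Those 3 were Hoxb13 (163 bp), Hoxc13 (350 bp) and Hoxd13 (167 bp), the terminal genes of their clusters, and none had H3K27Ac. Hoxa13, the terminal gene of Hoxa, had no promoter peak of any assay, nor had Hoxa11, Hoxc11, Hoxc12, Hoxd11 or Hoxd12. When ATAC peaks under 200 bp were left out, 1 of the 3 (Hoxc13) stayed. The reverse state, H3K27Ac without promoter ATAC, was found at Hoxb8 and Hoxc9. Around the start codon Hoxc9 had an ATAC peak and Hoxb8 had none. Beyond the edges ATAC peaks numbered 9 in 143 kb (6.30 per 100 kb), against 80 in the 342 kb before them (23.4 per 100 kb).

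**Figure D2:**
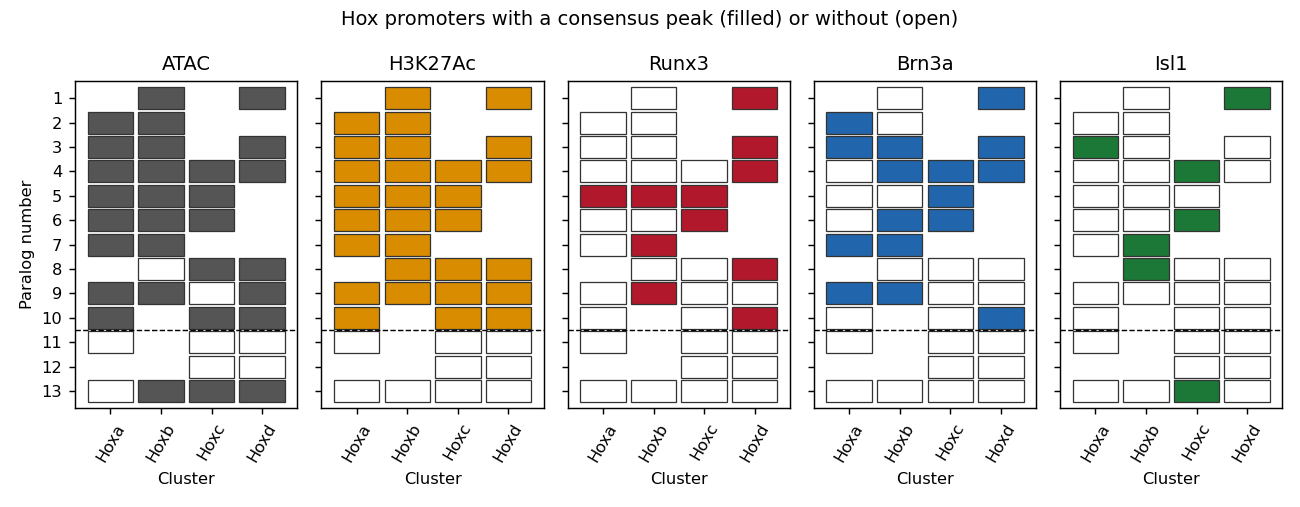
Promoter state of the 38 Hox genes by paralog number (rows) and cluster (columns) for the 5 assays, filled where a consensus peak was found. Positions without a box hold none of the 38 genes, and the dashed line lies between paralogs 10 and 11. H3K27Ac fills every box above the line and none below it, and ATAC fills 3 boxes below it.

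CpG content was compared at the principal TSS of the same genes, whereas H3K27Ac was called at any TSS. In the 1000 bp around the principal TSS the ratio of observed to expected CpG had a median of 0.75 over the 9 genes of paralogs 11 to 13, 0.65 over the 29 of paralogs 1 to 10 and 0.57 over all protein-coding genes. Among the unmarked genes Hoxb13 had the lowest value, 0.45. It was highest at Hoxa5 (0.99) and lowest at Hoxd4 (0.26), which both had H3K27Ac.

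H3K27Ac in the clusters was broad. For each gene, the share under H3K27Ac peaks was taken over its coding stretch, from 1 kb upstream of the start codon to the stop codon of the principal transcript. It passed 50% at 20 of 38 Hox genes (52.6%), beside 2.62% of all protein-coding genes. Hox coding stretches are short (1716 to 7235 bp), and among genes of that length range with promoter H3K27Ac the share over 50% was 12.4%. The highest values were 98.8% at Hoxb7, 97.5% at Hoxb6 and 97.4% at Hoxa2. Hoxa5, which acts in the cervical and brachial region, had 94.8%, and its paralogs Hoxb5 and Hoxc5 had 91.0% and 64.1%. The median over all protein-coding genes was 0%, and the median over genes with promoter H3K27Ac was 3.72%.

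The clusters differed in this respect. The cover passed 50% at 8 of 10 genes in Hoxa and 8 of 10 in Hoxb, at 3 of 9 in Hoxc (Hoxc4, Hoxc5 and Hoxc6) and at 1 of 9 in Hoxd (Hoxd4, 89.3%). Toward the edge it declined in Hoxc, from 70.4% at Hoxc6 to 33.9% at Hoxc8, 38.1% at Hoxc9 and 19.4% at Hoxc10. In Hoxd it was 23.5% at Hoxd8, 30.7% at Hoxd9 and 17.0% at Hoxd10. In Hoxa it was still 92.0% at Hoxa9 and 64.9% at Hoxa10, before 0% at Hoxa11. At the anterior ends the cover was 97.4% at Hoxa2, 41.2% at Hoxb1, 68.5% at Hoxc4 and 34.2% at Hoxd1. Hoxb1 is known for its role in hindbrain segments.

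**Figure D3:**
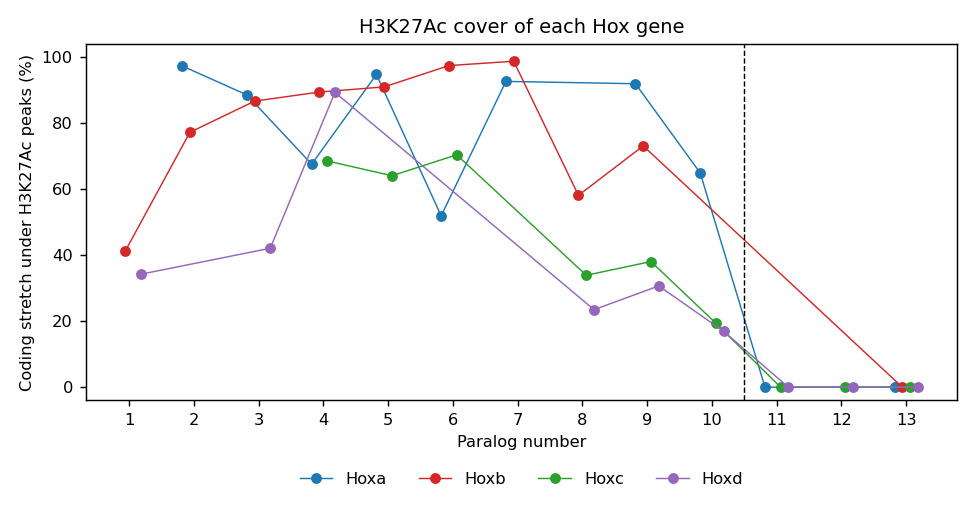
Share of each Hox gene's coding stretch under H3K27Ac peaks (percent, y axis) by paralog number (x axis), with a point per gene and a line per cluster. Values run from 17.0% to 98.8% for paralogs 1 to 10 and are 0% for all genes right of the dashed line.

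Over whole clusters, from the first to the last listed gene, H3K27Ac covered 46.3% of Hoxa, 39.2% of Hoxb, 25.3% of Hoxc and 27.6% of Hoxd, beside 1.07% of the genome. Of 27210 bins of 100 kb, 3 had a higher cover than Hoxa, 5 than Hoxb, 12 than Hoxc and 6 than Hoxd, and some of these bins lie in the clusters themselves. The units are unlike, since bins lie on a fixed grid and the clusters, of 96.8 to 174 kb, are cut at their outer genes. The median width of H3K27Ac peaks was 970 bp in the windows and 716 bp over the list. The median width of ATAC peaks was 208 and 204 bp. Many H3K27Ac peaks of the clusters had no ATAC peak. ATAC peaks overlapped 46.5% (72 of 155, Wilson 95% interval 38.8 to 54.3) of the H3K27Ac peaks in the windows, beside 73.4% of the whole list. In the other direction, 71.6% (83 of 116, 62.8 to 79.0) of the ATAC peaks overlapped H3K27Ac, beside 46.5% of the whole list. Peaks are the units of these intervals, which cover counting error only.

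Runx3 is the TF that TrkC neurons need to survive and to extend their axons. Its peaks were examined for RUNX binding sites (RBS), spelled ACCACA, as a variant ACCGCA, or with a leading G as GCCACA or as the variant GCCGCA, on either strand, and those of Brn3a and Isl1, homeodomain TFs of the POU and LIM classes, for their deposited motif marks V$BRNF and V$LHXF. In the sequences below the word TAAT is shown on either strand, which is not the same as these marks. TAAT was present in 96.4% of Brn3a peaks with the V$BRNF mark and 48.4% of those without, and in 97.9% of Isl1 peaks with the V$LHXF mark and 54.9% of those without. Of 32851 RefSeq promoters of 300 bases, 45.2% held an RBS and 58.0% TAAT. An RBS and a TAAT can share at most 1 base. Of the 38 genes, 22 had a promoter in that table, and 5 of these held an RBS and 17 TAAT.

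The following Runx3 peaks are shown because they lie at Hox promoters and carry RBS, which are in capitals. All are on the plus strand of GRCm38, and bases of annotated UTRs are left out.
Hoxd10, chr2:74691764-74691923: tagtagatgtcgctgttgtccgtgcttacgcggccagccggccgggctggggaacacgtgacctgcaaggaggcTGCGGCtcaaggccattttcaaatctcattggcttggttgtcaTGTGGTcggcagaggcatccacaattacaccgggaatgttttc
Hoxd3 and Hoxd4, chr2:74711756-74711926: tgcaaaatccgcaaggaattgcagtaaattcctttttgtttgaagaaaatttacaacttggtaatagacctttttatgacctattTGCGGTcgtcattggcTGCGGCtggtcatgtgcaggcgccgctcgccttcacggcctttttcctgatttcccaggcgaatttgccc
Hoxc6, chr15:102997981-102998214: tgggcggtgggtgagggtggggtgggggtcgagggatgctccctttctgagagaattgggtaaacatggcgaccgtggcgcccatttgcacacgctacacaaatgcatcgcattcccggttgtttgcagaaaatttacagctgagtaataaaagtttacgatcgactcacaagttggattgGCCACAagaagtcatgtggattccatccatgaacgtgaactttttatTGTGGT
Hoxc5, chr15:103014456-103014737: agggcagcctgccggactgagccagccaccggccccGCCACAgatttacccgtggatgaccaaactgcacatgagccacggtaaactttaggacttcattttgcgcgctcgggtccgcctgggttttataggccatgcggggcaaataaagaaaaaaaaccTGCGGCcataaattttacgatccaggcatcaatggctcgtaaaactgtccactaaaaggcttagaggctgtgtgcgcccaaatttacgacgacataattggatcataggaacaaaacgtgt

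The next is the Runx3 peak of the windows with 3 RBS, in the noncoding RNA gene Haglr between Hoxd3 and Hoxd1, on the plus strand.
Haglr, chr2:74753162-74753419: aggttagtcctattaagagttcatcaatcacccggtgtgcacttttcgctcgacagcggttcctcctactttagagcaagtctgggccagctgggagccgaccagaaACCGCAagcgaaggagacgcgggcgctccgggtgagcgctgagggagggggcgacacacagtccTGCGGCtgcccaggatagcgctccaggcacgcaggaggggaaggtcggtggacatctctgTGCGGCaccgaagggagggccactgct

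The last set shows Brn3a peaks with TAAT or its reverse complement in capitals, plus strand. The Hoxc6 and Hoxb7 sites were also peaks of Runx3 without RBS and of Isl1, and the Hoxd1 site also of Isl1. The Brn3a peak at Hoxb7 lacks the V$BRNF mark, and the other 3 carry it.
Hoxc6 intron, chr15:102999294-102999531: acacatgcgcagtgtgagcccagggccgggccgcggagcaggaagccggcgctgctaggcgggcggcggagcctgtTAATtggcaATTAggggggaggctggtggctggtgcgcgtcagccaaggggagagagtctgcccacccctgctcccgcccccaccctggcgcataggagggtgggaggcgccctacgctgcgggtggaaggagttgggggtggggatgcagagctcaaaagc
Hoxb7 intron, chr11:96287388-96287687: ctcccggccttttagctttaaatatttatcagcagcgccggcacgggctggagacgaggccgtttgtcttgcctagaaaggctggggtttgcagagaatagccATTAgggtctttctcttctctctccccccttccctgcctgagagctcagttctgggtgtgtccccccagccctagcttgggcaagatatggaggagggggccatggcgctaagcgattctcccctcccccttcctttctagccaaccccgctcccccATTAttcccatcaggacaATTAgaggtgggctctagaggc
Hoxd1 upstream, chr2:74761911-74762179: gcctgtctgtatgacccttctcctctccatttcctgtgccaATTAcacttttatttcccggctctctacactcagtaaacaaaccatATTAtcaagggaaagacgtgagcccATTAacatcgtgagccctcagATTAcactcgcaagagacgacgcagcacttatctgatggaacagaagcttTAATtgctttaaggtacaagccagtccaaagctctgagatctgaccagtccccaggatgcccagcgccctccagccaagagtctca
Hoxa2 gene body, chr6:52163743-52164042: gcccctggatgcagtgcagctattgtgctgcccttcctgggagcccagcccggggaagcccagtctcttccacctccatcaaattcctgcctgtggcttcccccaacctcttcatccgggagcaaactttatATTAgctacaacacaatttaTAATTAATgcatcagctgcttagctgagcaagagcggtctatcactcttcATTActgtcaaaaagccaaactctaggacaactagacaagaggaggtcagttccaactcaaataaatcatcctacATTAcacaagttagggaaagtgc

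Runx3 occupied the promoters of 11 of 38 Hox genes (28.9%), close to the 27.0% of all protein-coding genes. These were Hoxa5, Hoxb5, Hoxb7, Hoxb9, Hoxc5, Hoxc6, Hoxd1, Hoxd3, Hoxd4, Hoxd8 and Hoxd10. All 3 paralog 5 genes were among them, and Hoxd contributed 5 of its 9 genes against 1 of 10 in Hoxa. The promoter peak shared by Hoxd3 and Hoxd4, whose longest transcripts start within a few bases of each other, was 453 bp wide with 4 RBS, 2 of them in the stretch shown. Hoxd8 had 2 peaks over its coding sequence, with 1 and 2 RBS. At Hoxd10, the most posterior Hoxd gene with H3K27Ac, the peak was 246 bp wide with 2 RBS, its midpoint 38 bp from the TSS. A Brn3a peak of 161 bp without the V$BRNF mark lay inside it.

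Of the 22 Runx3 peaks in the windows, 8 were in Hoxd, 8 in Hoxb, 3 in Hoxc and 3 in Hoxa. An RBS was present in 19 of 22 (86.4%, Wilson 95% interval 66.7 to 95.3), beside 71.4% of the whole list, and 2 or more in 9 of 22, beside 36.3%. The peaks with most RBS, 4 each, were the Hoxd3 and Hoxd4 promoter peak and a 931 bp peak in Haglr at chr2:74749141-74750071. The 3 without RBS were at Hoxb7 (chr11:96287400-96287700), upstream of it (chr11:96285359-96285639) and in the Hoxc6 gene (chr15:102999303-102999536), and all 3 overlapped an Isl1 peak. ATAC overlapped 20 of 22 (90.9%, 72.2 to 97.5), beside 77.9%. H3K27Ac overlapped 21 of 22 (95.5%, 78.2 to 99.2), beside 60.9%. Peaks lay within 1 kb of a TSS of any annotated gene in 15 of 22 (68.2%, 47.3 to 83.6), beside 46.0%. ATAC peaks of the windows were also more often in promoters, 56.0% beside 36.4%. The density of TSSs in the windows was not allowed for in the promoter shares of any of the TFs. H3K27Ac peaks covered 25.3% (Hoxc) to 46.3% (Hoxa) of the clusters, beside 1.07% of the genome. ATAC peaks also covered more of each cluster than of the genome. Neither cover was allowed for in the overlap shares of any of the TFs. Higher overlap in the windows is thus not shown to be a trait of the TF peaks. Brn3a and Isl1 together overlapped 6 of the 22, Brn3a without Isl1 7, Isl1 without Brn3a 1 and neither 8.

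Brn3a occupied more Hox promoters, 16 of 38 (42.1%), beside 22.1% of all protein-coding genes. They included 8 of 11 genes of paralogs 1 to 4, 5 of 11 of paralogs 5 to 8 and 3 of 16 of paralogs 9 to 13, the last being Hoxa9, Hoxb9 and Hoxd10. At Hoxa3, Hoxb3 and Hoxd4 of paralogs 1 to 4, and at Hoxc6 and Hoxa9, these peaks lay over 1 kb from the principal TSS. The same held for Runx3 at Hoxc6 and Hoxd4 and for Isl1 at Hoxc6. The total of 16 and the difference between paralog groups thus rest in part on other transcripts, and Hoxd3 and Hoxd4 share their Brn3a promoter peak. The share of all protein-coding genes was also counted at any TSS, and TF counts were not recomputed with the principal transcript alone. Hoxb3 had 3 Brn3a peaks at its promoters, and Hoxa3, Hoxb4, Hoxb7, Hoxc4 and Hoxc5 had 2 each. Of 46 peaks in the windows, 29 carried the V$BRNF mark (63.0%, 48.6 to 75.5), beside 72.1% of the whole list. The mark was present in 7 of 7 peaks in Hoxc and in 7 of 14 in Hoxa. ATAC overlapped 31 (67.4%, 53.0 to 79.1), beside 46.1%. H3K27Ac overlapped 36 (78.3%, 64.4 to 87.7), beside 26.9%, and 29 (63.0%, 48.6 to 75.5) were in promoters, beside 17.7%. In Hoxb, 15 of 16 Brn3a peaks overlapped H3K27Ac, and the exception was a 148 bp peak in the Hoxb9 gene with the V$BRNF mark and neither ATAC nor H3K27Ac.

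Isl1 was at 7 of 38 Hox promoters (18.4%), beside 5.41%, namely Hoxa3, Hoxb7, Hoxb8, Hoxc4, Hoxc6, Hoxc13 and Hoxd1. Of 18 peaks in the windows, 13 carried the V$LHXF mark (72.2%, 49.1 to 87.5), beside 71.4%. ATAC overlapped 11 (61.1%, 38.6 to 79.7), beside 47.2%, and H3K27Ac 15 (83.3%, 60.8 to 94.2), beside 22.2%. Promoters held 11 (61.1%, 38.6 to 79.7), beside 9.92%. Hoxb7 was the gene with most TF peaks at its promoter, with 1 of Runx3, 2 of Brn3a and 2 of Isl1, under the 5255 bp H3K27Ac peak that covered nearly all of its coding stretch. Upstream of Hoxd1, in contrast, a 269 bp Brn3a peak and a 219 bp Isl1 peak at the same site, both with their marks and 5 TAAT, overlapped neither ATAC nor H3K27Ac.

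**Figure D4:**
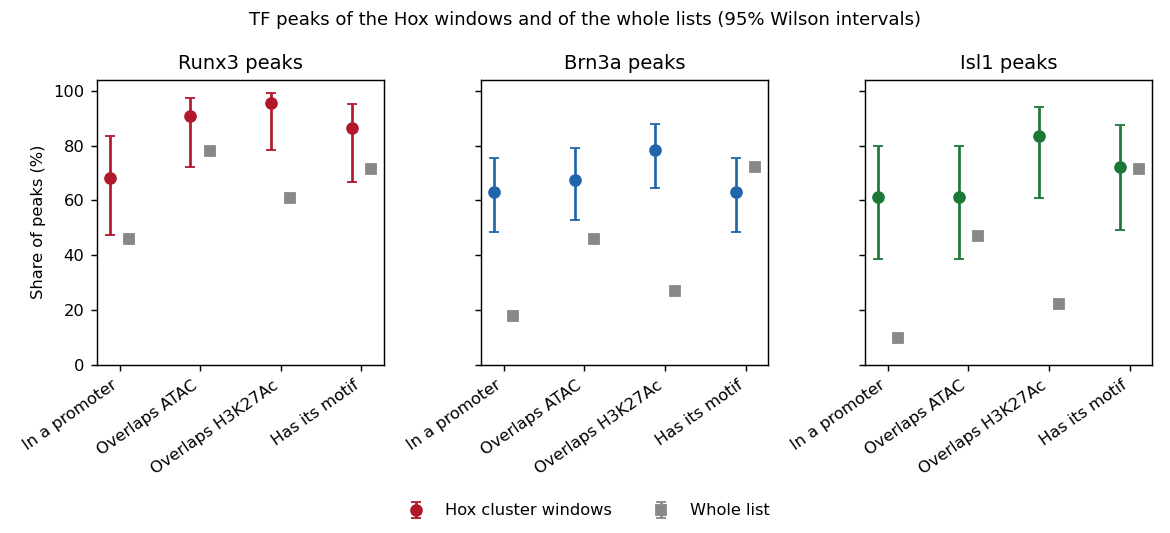
Share of Runx3 (22), Brn3a (46) and Isl1 (18) peaks of the Hox windows (circles) and of the whole lists (squares) that lie in a promoter, overlap ATAC, overlap H3K27Ac or carry the TF's own motif, in percent with Wilson 95% intervals. For each TF the interval for H3K27Ac in the Hox windows lies above the whole list, while the motif interval of each TF holds the whole-list value. The H3K27Ac shares do not allow for the far higher H3K27Ac cover of the clusters than of the genome.

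Within the clusters all TF peaks lay on the marked side of the H3K27Ac edge. Beyond it, up to the last listed gene, there were 0 Runx3, 0 Brn3a and 0 Isl1 peaks in 143 kb. Before it there were 20, 40 and 14 in 342 kb, or 5.85, 11.7 and 4.09 per 100 kb. Over the genome the densities were 0.494, 1.21 and 0.589 per 100 kb. At those densities few peaks are found in 143 kb of any locus, so the contrast lies in the dense stretch before the edge. Just outside the clusters were an Isl1 peak of 324 bp with the V$LHXF mark upstream of Hoxc13 (chr15:102920709-102921032), which overlapped ATAC and no H3K27Ac, and a Brn3a peak of 108 bp without the V$BRNF mark between Hoxd13 and Evx2. The midpoint of this Isl1 peak was 233 bp from the TSS of Hoxc13, and the peak is counted at that promoter above.

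The miRNAs of the clusters, which in several animals repress Hox mRNAs, fall into seed families, shown here with the seed (bases 2 to 8) in capitals as given by RefSeq. The miR-10 pair and the miR-196 pair each share a seed.
miR-10a-5p: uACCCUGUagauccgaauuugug
miR-10b-5p: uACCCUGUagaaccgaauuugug
miR-196a-5p: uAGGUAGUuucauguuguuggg
miR-196b-5p: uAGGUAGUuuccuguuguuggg
miR-615-3p: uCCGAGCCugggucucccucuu

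Hairpins of Mir10a (near Hoxb4), Mir196b (near Hoxa9) and Mir615 (in Hoxc5) lay inside H3K27Ac peaks. Mir10b, near Hoxd4, was 170 bp from the nearest H3K27Ac peak, and Mir196a-2, near Hoxc9, was 73 bp from it. Mir196a-1, between Hoxb9 and Hoxb13, was 3334 bp from it. Among long noncoding genes, Hoxb5os had ATAC and H3K27Ac but no TF peak at its TSS, with 85.3% of its length under H3K27Ac. Within its body lay Runx3 peaks with 1 RBS each at chr11:96294152-96294323, where Brn3a and Isl1 peaks overlapped, and at chr11:96303199-96303475. Haglr had all 5 assays at its TSS with 21.9% of its length covered.

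Genes that act on or with Hox genes were examined as lists in the same way. Over all protein-coding genes the shares were 64.8% for ATAC, 58.9% for H3K27Ac, 27.0% for Runx3, 22.1% for Brn3a and 5.41% for Isl1. The TALE cofactors, homeodomain proteins that bind DNA with Hox proteins, had ATAC and H3K27Ac at 9 of 9, Runx3 at 6 (among them Meis1, Meis2 and Pbx3), Brn3a at 6 and Isl1 at 3. Polycomb and trithorax genes, which maintain silent and active Hox states, had ATAC at 17 of 18 and H3K27Ac at 18 of 18. The shares of the next lists were nearer to those of all genes. Of 10 retinoic acid genes, 7 had H3K27Ac, including the receptors Rara, Rarb, Rarg, Rxra, Rxrb and Rxrg and the synthetic enzyme Aldh1a2, and the degrading enzymes Cyp26a1, Cyp26b1 and Cyp26c1 had none. Of the upstream regulators and boundary factors 5 of 8 had H3K27Ac, and the caudal genes Cdx1, Cdx2 and Cdx4, which activate trunk Hox genes in the early embryo, had neither ATAC nor H3K27Ac. The median share of the coding stretch under H3K27Ac, 55.0% over the 38 Hox genes, was 4.74% for the cofactors, 2.08% for Polycomb and trithorax and 1.64% for retinoic acid.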

How the data were processed

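Consensus peak lists of 5 assays in E11.5 TrkC neurons were analysed, 26 samples in all with the NRS controls. The authors trimmed reads with Cutadapt, aligned them to mm10 (with Bowtie2 for ATAC) and called peaks with MACS2 over fragments of up to 120 bp (ATAC) or 90 bp (CUT&RUN). Duplicates were removed with Picard 1.119 for ATAC and kept for CUT&RUN, where peaks were called against control samples. Peaks shared by at least 2 ATAC, 3 H3K27Ac, 4 Runx3, 2 Brn3a or 2 Isl1 samples were kept, and blacklisted regions and CUT&RUN peaks with over 60% repeats were removed. The deposited values are positions, a count of RBS per Runx3 peak and a 0 or 1 motif mark per Brn3a or Isl1 peak. No column of samples outside the series was found (0).

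Genes came from GENCODE M21 and sequence from GRCm38.p6, which share mm10 coordinates. Starts were read as 1-based, since RBS recounted in the sequence then equalled the deposited count in 13443 of 13443 Runx3 peaks. ATAC, Runx3, Brn3a and Isl1 peaks were assigned to promoters by midpoint and H3K27Ac peaks by 1 bp of overlap, both within 1 kb of any TSS. Overlaps needed 1 bp, after short ATAC peaks had been extended to 500 bp and short peaks of the other lists to 300 bp. No test was run, because the lists hold no value per sample. Counts are set beside the whole list or all protein-coding genes, with Wilson 95% intervals. The named genes are the listed Hox genes by paralog number, TF peaks within the clusters and genes of lists on Hox regulation and cell types. Members and lists were chosen with earlier results of these data known. Alternatives changed the promoter window, transcripts, cluster margin, minimum width, overlap and start convention. The code was tested on simulated data, and Python 3.11.15, numpy 2.4.6, pandas 2.3.3 and matplotlib 3.10.9 were used. Motif searches other than RBS and TAAT were not run. Results for a few items are left out.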

Additional observations from a re-analysis of the deposited data

How the results depend on the processing

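Of 89 values recomputed under other settings, 85 stayed within 1.5 times the main value. The 4 that moved all came from leaving out peaks under 200 bp, which took ATAC promoters of paralogs 11 to 13 from 3 genes to 1, ATAC peaks in the windows from 116 to 62, Brn3a peaks from 46 to 23 and Isl1 peaks from 18 to 10. These peaks are narrow by construction of the filter. Promoter H3K27Ac of paralogs 11 to 13 was 0 under all 6 alternatives, and over the 38 genes it was 28 or 29. The start-codon window was chosen after seeing the data, because some transcripts start at another Hox gene. No paired analysis was possible because each list is 1 consensus call over samples. For the same reason no replicate could be left out, and without scores the peak threshold could not be made stricter. Depth per sample is not given in the lists, so a missing peak may be a shallow one.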

Other observations

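Other homeobox genes related to the Hox clusters seldom had H3K27Ac. Of 10 such genes, 7 had ATAC at their promoter (Pdx1, Gsx1, Mnx1, Gbx1, Gbx2, En1 and En2) and 1 had H3K27Ac (Gbx2, with 17.6% of its coding stretch covered and a Runx3 promoter peak). Over all protein-coding genes the shares were 64.8% and 58.9%. Evx1 and Evx2, which lie next to Hoxa13 and Hoxd13, had no promoter peak of any assay. This is the state of Hoxa13 and differs from that of Hoxd13, which had ATAC.

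Egr2, a TF of hindbrain segments, had 8.79% of its coding stretch under H3K27Ac. Gdf11, a ligand that sets the trunk-to-tail transition of Hox expression, had 36.1%.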
